A study of Mus musculus with 12 samples.

Results

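The accessible regions described here are 993 ATAC-seq peaks of wild-type (WT) C2C12 cells that carry an unnamed mark. C2C12 is an established mouse myoblast line. The list of WT specific peaks, those with no overlapping peak in Runx1 knockout (KO) cells, holds 9318 of the 34118 WT peaks (27.3%). Its last column has no name and is filled for some peaks, with the peak's own start, and empty for the rest. Peaks with an entry were taken as marked, which gave 993 of 9318 peaks (10.7%, 95% Wilson interval 10.05 to 11.3), and the other 8325 as unmarked. What the mark stands for is not given in the sources used here. The WT and KO lists of the series hold 61305 peaks together.

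The study profiled 12 samples in 4 groups of 3. WT and Runx1KO C2C12 cells were kept in growth medium with 20% FBS at day 0, and cells of both genotypes were collected at day 2 of differentiation medium. All peak lists analysed are of growth medium, and the day 2 samples were not analysed here. Whether the knockout line is a single clone is not given in the sources used here. All peaks are named after replicate 1 of their genotype, so the values were taken as those of 1 library each. Whether other replicates were used to make the lists is not given in the sources used here. The values have no replicate error, and no test was possible. The depth is unknown. Intervals below treat peaks as units and describe these lists only. Of 6 myoblast markers, Myod1, Des and Chrna1 had a WT peak within 1 kb of a gene end and Myf5 had none within 10 kb. Among markers of other cells, 1 of 3 adipocyte genes (Pparg) and 1 of 3 immune genes (Spi1) had a peak at a gene end, against 0 of 4 fibroblast, 0 of 3 endothelial and 0 of 3 neural genes. Within 10 kb, a peak was found at 5 of 6 myoblast, 3 of 3 adipocyte, 3 of 3 endothelial, 2 of 3 immune, 2 of 4 fibroblast and 1 of 3 neural genes. The share over all genes is not given here, so these counts do not set the markers apart from other genes.

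Runx1 is a transcription factor of the RUNX family, which binds DNA with the partner Cbfb at the core TGTGGT. ETS factors bind sites built on GGAA, and RUNX and ETS factors are known to bind next to each other on composite sites. The title of the study names an ETS interaction domain of Runx1 in muscle differentiation and regeneration. The sequences of marked peaks were therefore read first.

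Sequence was read where a peak overlapped a RefSeq promoter window of assembly GRCm38.p6, which runs from 250 bases before to 50 bases after a transcription start. No window on chromosome 18 was used here. On the other chromosomes 114 of 963 marked peaks (11.8%, Wilson interval 9.95 to 14.03) and 733 of 8015 unmarked peaks (9.15%, interval 8.53 to 9.80) overlapped a window. The marked share was 2.69 percentage points higher (Newcombe interval 0.693 to 4.97), and these marked peaks were also wider, with a median of 391 against 293 bp; the part of width in this was not tested. The windows covered 25900 bases of the marked peaks (53.02% of the length of those 114) and 138639 bases of the unmarked ones (58.7%). Base composition was close, with a median GC content of 64.03% in marked and 64.2% in unmarked peaks. These promoters are a minor part of the marked peaks, and the sequence of the others was not read.

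Every 8-letter word, counted on both strands, was compared between the 114 marked and the 733 unmarked peaks. The plan named 6-letter words, which are given under other observations, and the scan of 8 letters was not part of it. Among 28252 words, GGAAGTGG (CCACTTCC on the other strand) had the highest difference. It was held by 21 of 114 marked peaks (18.4%, interval 12.4 to 26.5) and by 9 of 733 unmarked peaks (1.23%, interval 0.647 to 2.32), which is 17.2 points (interval 11.1 to 25.3). The excess was 10.6 points when only the 150 bp around the summit were read. Read the other way, 21 of the 30 peaks with the word (3.54% of the 847 peaks with sequence) were marked, a share of 70.0% (interval 52.1 to 83.3). The word was picked after its values were seen, so this interval does not allow for the choice among words. The next word, CGGAAGTG, overlaps it in 7 letters and stood at 11.8 points. The shorter GGAAGTG was held by 33 marked and 53 unmarked peaks (28.9% and 7.23%). The first letters of the word, GGAA, are the ETS core, and its end, GTGG, lies within the RUNX core TGTGGT. The word does not hold that core in full, because A and not T stands before its GTGG. T followed the word at 2 of 22 sites in marked peaks. Whether RUNX or ETS factors bind these sites was not tested.

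**Figure D1:**
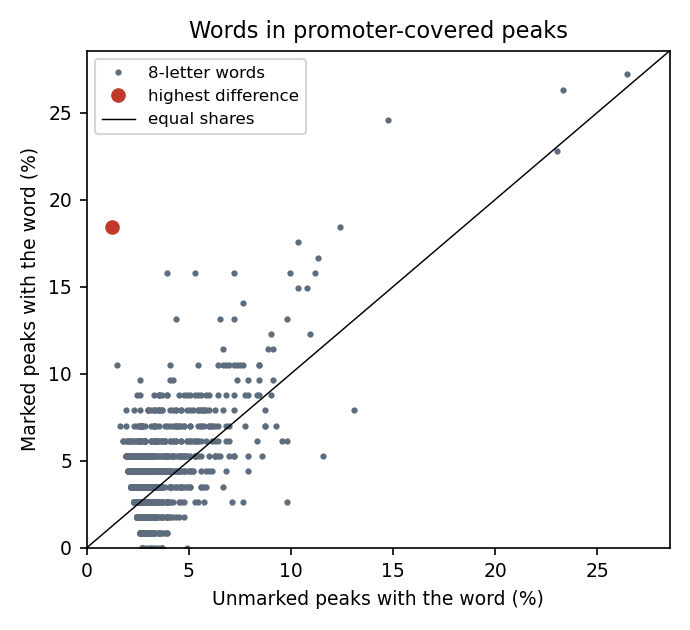
Each point is an 8-letter word held by at least 20 peaks, with its share among unmarked peaks (x axis, %) and among marked peaks (y axis, %); the line marks equal shares. The word with the highest difference sits at 1.23% and 18.4%, apart from the other words.

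The sites below show the word in capitals, read 5′ to 3′ on the strand that holds GGAAGTGG, with 8 bases on either side. They are the sites of the 9 marked peaks with the highest −log10 q and of Tcf12, the fixed-list gene among them.
Shkbp1: gcacacccGGAAGTGGgtgcgagc
Kif3b: gttgctaaGGAAGTGGgtcgccga
Nemp2: agagcggcGGAAGTGGcgcagcgg
Nf1: accccaccGGAAGTGGgatccttt
Rsl24d1: gctggagaGGAAGTGGtacgtcac
Nr1h2: cctcggccGGAAGTGGcacaccgg
Ube4a: ggcgggccGGAAGTGGctttggga
Depdc5: ccggaggaGGAAGTGGcgcggcca
Zfp558: tcagggccGGAAGTGGaagcgcgg
Tcf12: cgcgccgaGGAAGTGGgaccgcgg
The other marked peaks with the word lay at the promoters of Lrrc58, Cdk9, Dhrs11, Ikbkg, Cog4, Atmin, Taf5, Faf2, Fastkd5, A930006K02Rik and Spats1, and Cdk9 had the word at 2 places.

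All 9 sites in unmarked peaks are shown for contrast, in the same orientation and with the word in capitals.
Rbms2: gacccagtGGAAGTGGctcgttct
Exoc2: gacggcatGGAAGTGGacagagag
Lig4: cgcgagccGGAAGTGGaggctgcg
Edc4: gtgggaccGGAAGTGGaggcggtt
Psmd9: tggagcttGGAAGTGGgcggggtc
Anxa1: ttcagactGGAAGTGGagggttgg
Paqr7: cgctttggGGAAGTGGgtaaactc
Kif16b: ggtgagagGGAAGTGGgcgggggc
Man2b2: ccggacccGGAAGTGGaccgctct

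The letters next to the word differed between these sets. In marked peaks the letter before it was A or C at 21 of 22 sites and G or T at 1, whereas in unmarked peaks it was A or C at 3 of 9 sites and G or T at 6. The letter after it was A at 2 of 22 sites in marked and at 5 of 9 sites in unmarked peaks. Taken by peak, all 18 peaks with A or C before the word and C, G or T after it were marked (Wilson interval of the share 82.4 to 100%). Of the 12 peaks with the word between other letters, 3 were marked (25%, interval 8.89 to 53.2). These neighbouring letters were also read after the values were known.

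Forms of the word with 1 letter changed were read beside all 847 peaks with sequence, of which 114 were marked. With T at position 4, counted from 1 at the first G, the form is GGATGTGG. Of the 8 peaks that held it, 5 were marked (interval 30.6 to 86.3%). They included all 4 with A or C before it and C, G or T after it. With A at position 8 (GGAAGTGA), 10 of 29 were marked, with G at position 4 (GGAGGTGG) 5 of 31, and with C at position 6 (GGAAGCGG) 4 of 34. Each of the 3 forms with another letter at position 2 was held by 4 peaks, 0 of them marked (upper Wilson limit 49.0%). Among all peaks without the word but with a form that differs by 1 letter, 38 of 260 were marked (14.6%, interval 10.8 to 19.4), and among peaks with neither 55 of 557 (9.87%, interval 7.67 to 12.6). Peaks with such a form also had more sequence read, with a median of 202 covered bases against 170 in peaks with neither. The part of this in the marked shares was not tested. Counts per form are small, and a peak can hold more than 1 form.

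Peaks with the word were also divided by the amount of sequence read. Each class held few of them, so the marked shares of the classes cannot be called alike or different. In 3 classes of covered length, from short to long, 5 of 7, 6 of 9 and 10 of 14 peaks with the word were marked. Without the word the marked share in those classes was 8.0%, 11.3% and 14.9%. When the word was chosen on one set of alternate chromosomes and read on the other, the same word ranked first on both. It was then held by 8 of 58 marked and 6 of 311 unmarked peaks in one set, and by 13 of 56 and 3 of 422 in the other. Both sets are parts of the list on which the word and its length were first read. Neither set was therefore held out, and the split does not repeat the result in other data.

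The KO specific list carries the same kind of mark and was not used to choose the word. There 58 of 2607 peaks were marked (2.22%, interval 1.72 to 2.87), and KO specific peaks were 9.59% of the 27187 KO peaks. Of the 5 marked KO specific peaks in promoter windows, 4 held GGAAGTGG (80.0%, interval 37.6 to 96.4), against 4 of 141 unmarked ones (2.84%, interval 1.11 to 7.07). The 4 marked sites all had A or C before the word and G or C after it.
Areg: acgcgggaGGAAGTGGggatcgag
Mrpl3: aacggaccGGAAGTGGcccggctg
These examples are the promoters of Areg, which encodes the growth factor amphiregulin, and of Mrpl3, which encodes a mitochondrial ribosomal protein. One unmarked KO specific peak, at Tex10, had the same kind of neighbouring letters. Both KO specific peaks with GGATGTGG between such letters were unmarked, unlike the 4 in the WT list.

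**Figure D2:**
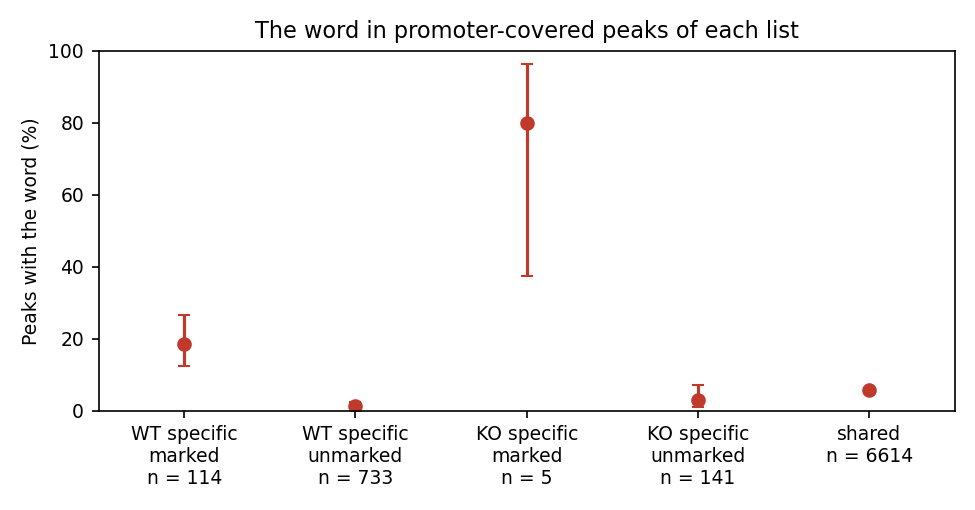
Points give the share of promoter-covered peaks that hold the word in each list (y axis, %), with 95% Wilson intervals and the number of peaks under each name. Both marked sets, at 18.4% and 80.0%, lie above their unmarked sets, at 1.23% and 2.84%; the shared list is at 5.81%.

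The word itself is not rare in promoters. It was held by 1317 of all 32851 promoter windows (4.01%) and by 384 of 6614 promoter-covered shared peaks (5.81%), of which a median of 299 bases was covered. Per length of sequence read, it occurred 8.49 times per 10 kb in marked and 0.649 times in unmarked WT specific peaks. All WT specific peaks together had 1.88 matches per 10 kb, near the 2.23 of shared peaks and the 2.91 of KO specific peaks.

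Among the motifs of the fixed panel, the ETS form CCGGAAG was among the 2 whose intervals of the difference lay above 0. It was found in 27 of 114 marked peaks (23.7%, interval 16.8 to 32.3) and 96 of 733 unmarked peaks (13.1%, interval 10.8 to 15.7), and in 8.86% of all promoter windows. The difference was 10.6 points (interval 3.23 to 19.5). This motif shares its GGAAG with the top word, and many peaks held both at the same site. In the bases read, the marked sites at Shkbp1, Nf1, Nr1h2, Ube4a, Zfp558, Cdk9, Atmin, Faf2, Fastkd5 and A930006K02Rik read CCGGAAGTGG. The unmarked sites at Lig4 and Man2b2 did so too. The 2 results are therefore not separate, and the difference without these peaks was not computed. The ETS form CAGGAAG was at 11.4% and 8.59%, with 13.3% of all windows. The RUNX core TGTGGT was found in 17 of 114 marked (14.9%, interval 9.52 to 22.6) and 68 of 733 unmarked peaks (9.28%, interval 7.38 to 11.6), a difference of 5.64 points whose interval held 0 (−0.230 to 13.5). It is in 16.8% of all windows. The difference depended on the setting, from 0.449 points for the longer motif TGTGGTT to 10.9 points among peaks with a −log10 q at or above the median. As a mean over classes of width it was 10.03 points for TGTGGT. The variant TGCGGT stood at 8.77% and 7.09%, and at 6.45% of windows.

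Shares of peaks depend on how much sequence was read, and marked peaks had more of it, with a median of 218.5 covered bases against 176 in unmarked peaks and 300 in a whole window. Per 10 kb read, the marked and unmarked sets had 15.1 and 8.15 matches of CCGGAAG, 6.18 and 4.69 of CAGGAAG, 6.56 and 5.48 of TGTGGT, and 3.86 and 3.90 of TGCGGT.

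Sites of other families were read in the same way. The E-box CAGCTG, which MyoD-type factors bind, stood at 14.9% in the marked and 14.7% in the unmarked set (16.3% of windows), 0.178 points apart (interval −5.87 to 8.22). The E-box CAGGTG was at 10.5% and 9.14% (20.2% of windows), the AP-1 site TGANTCA at 7.89% and 6.68% (7.81%), and the TEAD site GGAATG at 7.02% and 9.28% (14.7%). The intervals of the difference in share held 0 for all 4 motifs. Per 10 kb read, the marked and unmarked sets had 7.34 and 8.29 matches of CAGCTG and 4.63 and 5.48 of CAGGTG. They had 3.47 and 3.97 of TGANTCA, and 3.47 and 5.12 of GGAATG. No interval was computed for these rates. The GC box GGGCGG, a site of SP and KLF factors, was at 61.4% and 49.9% (35.7%), 11.5 points apart (interval 1.62 to 20.6), the highest difference of the panel, while its matches per 10 kb were 57.1 and 51.8. The palindromic NFI site was in no peak, and the CTCF core in 0 marked and 3 unmarked peaks (0.409%). All motifs were searched on both strands, and a missing match says only that these letters are not in the window read.

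Most marked promoter peaks did not hold GGAAGTGG in the bases read. Of the 93 such peaks, 8 were covered in full. In the others part of the peak lay outside the windows, and the median uncovered length over the 93 was 169 bp. Of the 11 marked peaks covered in full, 3 held the word, as did 3 of the 137 unmarked ones.

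Along the promoters, the word lay upstream of the start at 16 of 22 sites in marked peaks and downstream at 6, from 236 bases before to 36 bases after the start. It pointed the same way as the gene at 11 of 22 sites. Its distance from the summit of the peak had a median of 67 bp in marked peaks (2 to 268 bp) and of 64 bp in unmarked ones (26 to 120 bp). Sites in both sets therefore lay at similar distances from the summits.

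**Figure D3:**
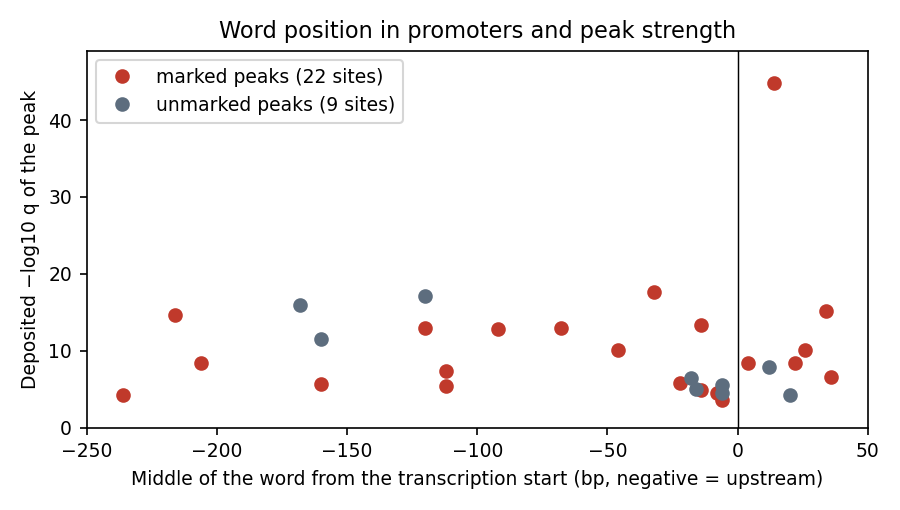
Each point is a site of the word, placed by its distance from the transcription start (x axis, bp) and the deposited −log10 q of its peak (y axis). The 22 sites in marked peaks run from −236 to 36 bp, and those in unmarked peaks from −168 to 20 bp.

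The peak at the Shkbp1 promoter, chr7:27355822-27356155, was the strongest marked peak of all, with a deposited fold of 19.4 and a −log10 q of 44.9, at rank 6 among the WT specific peaks. Its word lay 14 bases downstream of the start. Shkbp1 encodes an adaptor that binds SH3KBP1 in receptor endocytosis. At Kif3b, which encodes a kinesin-2 motor subunit, the marked peak at chr2:153291075-153291835 had a fold of 10.2 and a −log10 q of 17.6. Nf1, which encodes the RAS regulator neurofibromin, had a fold of 9.03 and a −log10 q of 14.7 at chr11:79339250-79339713. Peaks at Taf5, a subunit of the general factor TFIID, and at Cdk9, the kinase of the elongation factor P-TEFb, were weaker, with a −log10 q of 5.72 and 8.47. The −log10 q of the 21 marked peaks with the word ran from 3.59 to 44.9, with a median of 8.47.

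The upstream 250 bases of 3 promoters are given in full, on the strand of the gene and ending at the base before the start, with the word in capitals. Tcf12 encodes an E protein that pairs with MyoD-type factors. Its marked peak at chr9:72111762-72112175 had a fold of 5.73 and a −log10 q of 5.43. Kif3b is the strongest marked peak with the word upstream, and Rbms2, which encodes an RNA-binding protein, the strongest unmarked one.
Tcf12, chr9:72111820-72112069, minus strand: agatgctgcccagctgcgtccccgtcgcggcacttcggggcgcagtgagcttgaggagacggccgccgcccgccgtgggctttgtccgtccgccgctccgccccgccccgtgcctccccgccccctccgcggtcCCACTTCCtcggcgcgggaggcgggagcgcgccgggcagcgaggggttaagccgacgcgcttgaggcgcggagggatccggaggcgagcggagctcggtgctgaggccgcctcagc
Kif3b, chr2:153291166-153291415, plus strand: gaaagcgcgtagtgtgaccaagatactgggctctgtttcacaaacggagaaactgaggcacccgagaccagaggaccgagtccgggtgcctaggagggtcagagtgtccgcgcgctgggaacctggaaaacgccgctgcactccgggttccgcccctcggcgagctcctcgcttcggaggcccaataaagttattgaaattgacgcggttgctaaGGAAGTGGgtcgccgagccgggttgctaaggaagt
Rbms2, chr10:128176569-128176818, minus strand: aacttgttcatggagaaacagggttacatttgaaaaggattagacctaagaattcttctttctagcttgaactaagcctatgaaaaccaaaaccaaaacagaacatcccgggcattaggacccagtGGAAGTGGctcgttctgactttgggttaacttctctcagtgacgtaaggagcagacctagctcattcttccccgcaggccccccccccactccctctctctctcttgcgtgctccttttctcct
The GC content of these stretches was 76.8%, 59.6% and 47.6%. The peaks covered all 250 bases at Tcf12 and Kif3b and 181 at Rbms2.

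Beyond the promoters, the share of marked peaks followed the width of the peak. Marked peaks had a median width of 309 bp (quartiles 213 and 419 bp) and unmarked peaks of 245 bp (183 and 343 bp), a difference of 64 bp (interval 48.5 to 75.4). In the narrowest decile, from 124 to 151 bp, 54 of 965 peaks were marked (5.60%, interval 4.31 to 7.23). In the widest, from 466 to 1493 bp, 184 of 928 were marked (19.8%, interval 17.4 to 22.5). The share was higher in each decile than in the one below it. Per length of peak, the number of marked peaks stayed between 3.39 and 4.34 per 10 kb in all 10 deciles.

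**Figure D4:**
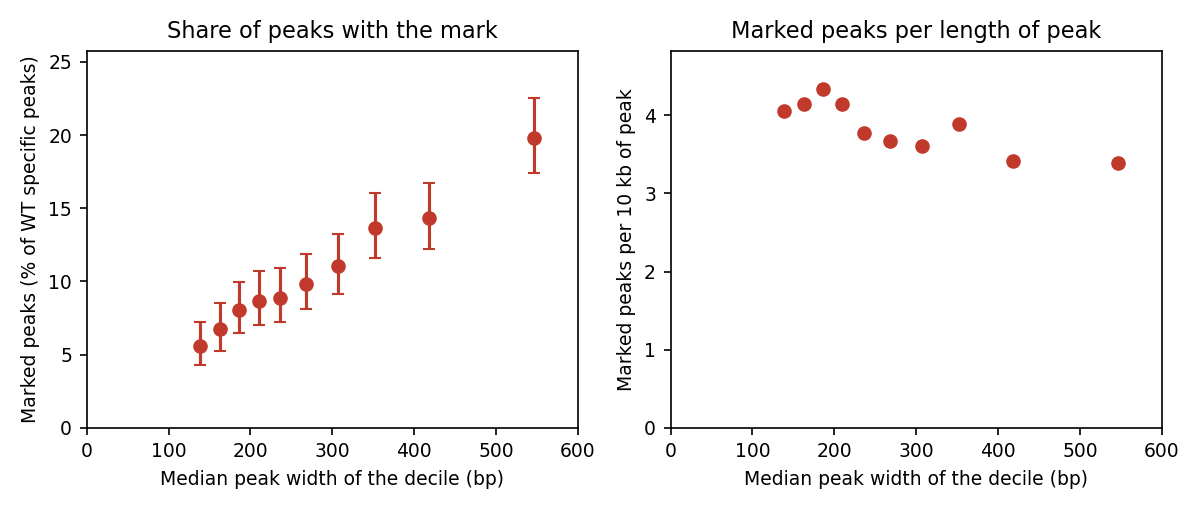
WT specific peaks in 10 classes of width, at the class median (x axis, bp). Left, the share with the mark (y axis, %) with 95% Wilson intervals, from 5.60% to 19.8%; right, marked peaks per 10 kb of peak, from 3.39 to 4.34.

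Peak strength differed less. The median −log10 q was 9.14 (quartiles 6.12 and 13.1) in marked and 8.30 (5.62 and 12.01) in unmarked peaks, a difference of 0.845 (interval 0.449 to 1.47). It was 0.486 as a mean over classes of width. The median fold was 6.73 and 6.46. Within classes of width, the stronger and the weaker peaks had marked shares of 6.09% and 6.20% among the narrowest, 9.28% and 7.47% from 174 to 222 bp, 10.2% and 8.57% from 223 to 287 bp, and 12.5% and 12.3% from 288 to 380 bp. They stood furthest apart among the widest, from 381 bp, at 20.0% (interval 17.5 to 22.7) and 14.2% (interval 12.1 to 16.6).

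The WT specific list had more marked peaks than the KO specific list in each class of width. In the narrowest class 6.15% of WT specific peaks (interval 5.15 to 7.33) and 1.85% of KO specific peaks (interval 0.897 to 3.76) were marked. In the widest class these shares were 17.1% (interval 15.4 to 18.9) and 3.52% (interval 2.29 to 5.38). Each list is named after 1 library, and genotype and library cannot be told apart. Marked KO specific peaks had a median width of 304 bp, against 257 bp for unmarked ones, and a median −log10 q of 7.92 against 8.39.

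**Figure D5:**
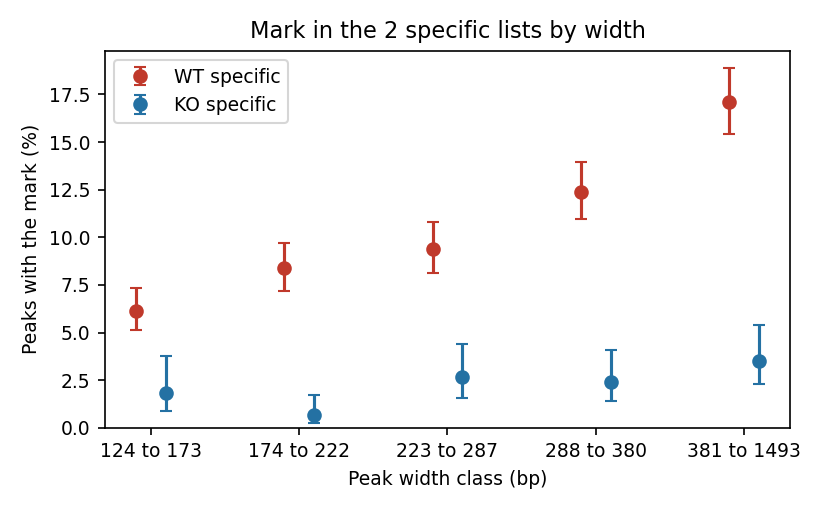
Share of peaks with the mark (y axis, %) in 5 width classes set on the WT specific list (x axis, bp), with 95% Wilson intervals. WT specific peaks go from 6.15% to 17.1% and KO specific peaks lie between 0.675% and 3.52%.

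Marked peaks were spread over genes much as unmarked peaks were, apart from a lower share between genes. Gene ends, taken as 1 kb to either side, had the centre of 204 marked peaks (20.5%, interval 18.1 to 23.2) and 1503 unmarked peaks (18.1%, interval 17.2 to 18.9). The interval of the 2.49 point difference held 0 (−0.0506 to 5.24), and the difference was 0.498 points as a mean over classes of width. Elsewhere in a gene lay 51.7% of marked and 50.6% of unmarked peaks. Regions between genes had 27.8% of the marked set and 31.3% of the unmarked set, or −3.54 points (interval −6.42 to −0.512). Marked peaks at gene ends were wide, with a median of 359.5 bp against 266 bp for unmarked ones there.

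The distance to the nearest KO peak did not separate the sets, with medians of 15122 and 13572 bp and a difference of 1550 bp (interval −213 to 3878). Marked peaks made up 9.60% of the 323 WT specific peaks within 500 bp of a KO peak and 11.8% of the 1588 peaks more than 50000 bp from one. Across chromosomes the marked share ran from 7.88% on chromosome 13 (35 of 444, interval 5.72 to 10.8) to 14.01% on chromosome 2 (93 of 664, interval 11.6 to 16.9). Of the neighbours of marked peaks in the list, 10.4% were marked, against 10.6% of all peaks in these pairs. For neighbours within 10 kb these shares were 11.8% and 10.3%, with 12 of 990 pairs marked on both sides.

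Runx1 itself had 7 WT specific peaks in the gene or within 10 kb, and 1 was marked. The marked peak, at chr16:92683952-92684156 within the gene, was 205 bp wide and had a deposited fold of 6.61. Its −log10 q was 10.3 and the closest KO peak stood 3856 bp off. The other 6 had a −log10 q from 5.67 to 15.4, so the marked peak was neither the strongest nor the weakest. Runx2, a paralogue that drives bone formation, had the other marked peak of the RUNX list.

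In 8 lists of genes of the RUNX, ETS, AP-1 and TEAD families and of muscle biology, 14 of 123 WT specific peaks were marked (11.4%, interval 6.90 to 18.2). At no gene of the lists, 979 of 9195 were marked (10.6%). All 116 genes were found in the gene table, 59 had a WT specific peak and 13 had a marked one. Over all 21896 protein-coding genes, 5465 had a WT specific peak and 844 a marked one. The part of gene length in these counts was not tested. The list of RUNX factors and partners had 2 marked of 18 peaks, the TEAD list 1 of 9, the myogenic factors 2 of 14 and the growth factor list 2 of 16. The list of fusion, adhesion and muscle structure had 3 of 18 (16.7%, interval 5.84 to 39.2), the highest share, and that of cytoskeleton and focal adhesion 4 of 35 (11.4%). The ETS list had 0 of 9 and the AP-1 list 0 of 4, where so few peaks allow shares of up to 29.9% and 49.0% (upper Wilson limits).

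Of the 14 marked peaks at list genes, 10 lay inside a gene away from its ends, 2 lay between genes and 2 at a gene end. Their −log10 q ran from 3.32 at Pxn, which encodes the focal adhesion protein paxillin, to 18.8 at Id1, an inhibitor of E proteins. A KO peak lay 29 bp from the Pxn peak, the smallest such distance of any marked peak. Among the myogenic factors the genes were Tcf12 and Id1. In the list of fusion, adhesion and muscle structure they were Acta1 (skeletal muscle actin), Ryr1 (the calcium release channel of muscle) and Chrna1 (a subunit of the acetylcholine receptor at the neuromuscular junction). Wwtr1, the TEAD coactivator TAZ, was the gene of the TEAD list. Dst, which encodes the cytoskeletal linker dystonin, was the gene with 2 marked peaks, among 12 WT specific peaks. They lay at chr1:34120028-34120338 (fold 7.60, −log10 q 13.7) and chr1:34236277-34236621 (fold 9.63, −log10 q 15.7). Flna (filamin A), the growth factor Tgfb2 and the receptor gene Pdgfrb were the other genes.

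Over all protein-coding genes, 844 of the 5465 with a WT specific peak had a marked one, of which 798 had 1, 43 had 2 and 3 had 3. The 3 were Zfhx3, which encodes a homeobox transcription factor, Nsmce2, a SUMO ligase of DNA repair, and Tbx15, a T-box factor of skeletal and muscle development. At Tbx15 all 5 WT peaks were WT specific and 3 were marked, with a fold of 5.09 to 6.60. At Zfhx3, 3 of 5 WT specific peaks were marked, and the strongest had a fold of 11.97. At Nsmce2 it was 3 of 4, with a −log10 q from 4.65 to 20.5. The next genes, with 2 marked peaks each, were Alox5 (5-lipoxygenase), Ghr (the growth hormone receptor), Ugcg (glucosylceramide synthase), Fhod3 (a formin of the sarcomere), Myo1d (an unconventional myosin), Lrmda and Ank (a pyrophosphate transporter). Long genes can hold more peaks, and lengths here ran from 33.3 kb at Ugcg to 1037 kb at Lrmda.

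Of the 10 marked peaks with the highest −log10 q, that at Shkbp1 lay at a gene end and the other 9 lay elsewhere in a gene of any kind. After Shkbp1, the peak at chr4:64235626-64236124, whose nearest protein-coding gene was Tnc, the matrix protein tenascin C, at 188860 bp, had a fold of 16.4 and a −log10 q of 39.98. Peaks nearest to Sepsecs, Nek7, Dnajc21, Atxn1, Stk38l, Alox5, Pick1 and Htt followed, with a −log10 q from 30.7 to 39.3. The Sepsecs peak lay 23325 bp from that gene, and the other 7 lay within the genes named. None of these 10 lay among the 5 strongest WT specific peaks, and the nearest KO peak was between 784 and 88219 bp away.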

How the data were processed

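Peak lists from ATAC-seq of C2C12 cells in growth medium were analysed. Per the submitters' processing notes the genome build is mm10, which shares its coordinates with GRCm38. The aligner, the peak caller and its filters are not given in the sources used here. The deposited lists have the layout of narrowPeak files without a header. Each peak has the authors' fold (a ratio to background), the authors' −log10 q, a deposited score that is about 10 times −log10 q, and a summit. These values depend on sequencing depth, taken as that of 1 library per genotype, so they were compared only within a list. The score was not used.

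Marked rows were compared with unmarked rows of the WT specific list. The overlap of 1 bp that makes a peak specific was checked with bedtools 2.31.1. Shares have 95% Wilson intervals, differences of shares Newcombe intervals, and medians order-statistic intervals. Genes came from RefSeq (GRCm38.p6), and a peak was assigned to a gene within 10 kb. Sequences came from 32851 RefSeq promoter windows, since only these were used here. A planned reading of whole peaks was thus limited to them. Tools were scipy 1.17.1, pandas 2.3.3 and numpy 2.4.6 under Python 3.11.15. On simulated data of 733 peaks, a word planted in part of the simulated marked peaks and in none of the others was ranked first in 20 of 20 runs. This checks the working of the scan only, because in the data unmarked peaks held the top word too. The intervals held the simulated difference in 479 of 500 runs for shares and 467 of 500 for medians.

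Genes were named by rule: Runx1, list genes with a marked peak, the 10 protein-coding genes with the most marked peaks, and the 10 strongest marked peaks. Genes at the top word, and examples from the KO specific list, were named because their sequences hold it. The members and lists were chosen with earlier results of these data known. Alternatives in the threshold, overlap, width, window and gene assignment were computed.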

Additional observations from a re-analysis of the deposited data

Results flagged for a closer look

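The unnamed mark is also present in the list of KO specific peaks, which the comparison of marked with unmarked WT specific peaks did not use. It stands in 58 of 2607 peaks (2.22%). There is no control sample to set this share against, and it is given as a value only.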

How the results depend on the processing

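No paired analysis was possible because each list holds 1 set of values, and for the same reason no replicate could be left out. Limited to peaks with a −log10 q at or above the median of the WT specific list, the marked share was 11.9%, above the interval of the full list. The excess of GGAAGTGG in marked peaks was 10.6 points when only 150 bp around the summit were read, under its interval, and from 13.7 to 25.1 points under the other alternatives; these were all chosen after seeing the data. The causes of both shifts were not tested. The other results stayed inside their intervals under the alternatives computed. The difference in median width was 58 to 65.5 bp and that in −log10 q 0.486 to 0.929. The difference at gene ends was 0.498 points as a mean over width classes and 3.81 points among the stronger peaks. The difference for the RUNX core ran from 0.449 points for the longer motif TGTGGTT to 10.9 points among the stronger peaks. For TGTGGT it was 10.03 points as a mean over width classes. The marked share at the listed genes ran from 10.8% to 14.7%. The main limits are 1 set of values per genotype, unknown depth, and sequence for promoters only.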

Other observations

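Among promoter-covered peaks without GGAAGTGG, the words with the highest excess in marked peaks were rich in G and C, led by GGGAGGGG at 19 of 93 marked and 76 unmarked peaks (20.4% and 10.5%). Further down, GTGGTCTG, which contains the GTGGT of the RUNX core, was held by 7 marked and 5 unmarked peaks (7.53% and 0.691%). Among 6-letter words, the planned length, GAAGTG led over all promoter-covered peaks with 35 marked and 77 unmarked peaks (30.7% and 10.5%). It was followed by GGAAGT with 42 and 127. Of the peaks with GAAGTG, 31.25% were marked. These words were read after their values were known.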
